A study of Mus musculus with 2 samples.

Results

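Ptch1-positive basal keratinocytes (KCs) were taken from single-cell RNA sequencing of the epidermis of 2 mice. They were chosen by measured UMI counts, where a UMI is 1 captured RNA molecule. A cell was kept with 900 to 7700 genes and under 10% mitochondrial UMIs. It then needed Krt14 and Krt5, the basal keratins, at 0.5% or more of its UMIs, and Krt1 and Krt10, the first suprabasal keratins, under 0.8%. It also needed at most 1 UMI of the follicle factor Lhx2, no UMI of the ligand gene Shh, at most 2 UMIs of the mitotic genes Cenpf, Ccnb1 and Ube2c together, and at least 2 UMIs of Ptch1. These limits selected 724 cells in mouse 1 and 1353 in mouse 2, together 2077 of 19488 cells kept (10.7%), out of 26683 barcodes deposited.

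Both animals were male C57BL/6J mice lacking Chrm3, which encodes the muscarinic M3 receptor for acetylcholine, and skin was collected at postnatal day 0. Each animal gave 1 library of cells released from the epidermis after its separation from the dermis and removal of dead cells. No wild-type library was analysed here, so every comparison is between cells of the same 2 knockout animals and no effect of the genotype was tested. The deletion is shared by all groups, and Chrm3 itself gave 1 UMI in the Ptch1-positive cells of either mouse and 13 and 19 UMIs among all cells kept in mouse 1 and mouse 2, which is too few to check the genotype by its transcript.

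In the hedgehog pathway a secreted ligand, in hair follicles Sonic hedgehog (Shh), binds Patched receptors and so releases Smoothened, which turns Gli proteins into transcriptional activators. Gli1 and Ptch1 are themselves switched on by the pathway, so their RNAs are widely read as a sign of response. In newborn skin the ligand is made by a small group of cells in the follicle bud, and hedgehog signals are known for driving growth of the follicle epithelium.

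Altogether 5 groups that share no cell were compared within each mouse, all under the same limits on Krt14, Krt5, Krt1, Krt10 and the mitotic genes. Beside the Ptch1-positive cells they were basal cells with exactly 1 Ptch1 UMI (631 cells in mouse 1 and 975 in mouse 2), basal cells with none (1191 and 1942), Lhx2-high follicle cells with at least 2 UMIs of Lhx2 and none of Shh (527 and 961), and Shh-expressing cells with at least 2 UMIs of Shh (29 and 81). The sums of the Ptch1-positive cells held 8323238 UMIs in mouse 1 and 15407208 in mouse 2. The Shh-expressing sums held only 287758 and 891076 UMIs and are the least precise. Levels below are a gene's UMIs per 1000000 UMIs of the group (CPM), and each fold change is a log2 value with its standard error.

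The share of Ptch1-positive cells was close in the 2 mice. They made up 28.4% of the 2546 basal cells of mouse 1 that met every other limit (exact 95% binomial interval 26.7 to 30.2) and 31.7% of the 4270 such cells of mouse 2 (30.3 to 33.1). Intervals cover counting error only. After each cell was thinned to 3000 UMIs the shares were 8.33% and 9.81%, with 13 and 90 shallower cells left out, so the size of the group depends on depth. The Ptch1-positive cells were also deeper than their neighbours, with median totals of 10142.5 and 10483 UMIs against 8700 and 8848 in the Ptch1-zero cells. Of melanocyte-like cells, which carry pigment genes and served as a measure of stray RNA, 9.45% (6.86 to 12.6) and 10.4% (8.28 to 13.0) had at least 2 Ptch1 UMIs.

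Ptch1 was not confined to basal cells. Among all cells kept, 43.5% in mouse 1 and 44.8% in mouse 2 had at least 2 Ptch1 UMIs, and the Ptch1-positive basal cells were 21.9% and 25.4% of those. They held 16.3% and 19.1% of all Ptch1 UMIs. The gene that chose them stood at 351 CPM in mouse 1 and 344 CPM in mouse 2, against 97.3 and 102 CPM just outside the limit, in the cells with 1 UMI. In the Lhx2-high cells it stood at 213 and 228 CPM, and 56.7% and 59.4% of them had at least 2 Ptch1 UMIs. In the Shh-expressing cells it stood at 285 and 203 CPM, and 82.8% and 48.1% had at least 2. Neither of these groups had a limit on Ptch1. Over all basal cells that met the other limits Ptch1 stood at 135 and 145 CPM, against 188 and 186 CPM over all cells kept. The levels in groups cut by Ptch1 follow from the selection, and none of these levels was tested. The median Ptch1-positive cell carried 3 Ptch1 UMIs in both mice, and 37.4% and 37.3% carried exactly 2. The Ptch1 gene lies on the minus strand of chromosome 13 (chr13:63508328-63573598, mm10).

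Gli1, a gene that hedgehog signals induce, was higher in the Ptch1-positive cells than in the Ptch1-zero basal cells, and both mice gave nearly the same level. Gli1, the transcription factor that serves as the standard readout of the pathway (chr10:127329882-127341974), was at 29.8 and 27.1 CPM against 9.10 and 9.20 CPM. It rose by 1.54 ± 0.14 on the log2 scale, with an adjusted p of 0.00071 in the quasi-likelihood test of edgeR after Benjamini-Hochberg adjustment. The summed levels of the Ptch1-positive cells of both mice lay above those of the Ptch1-zero cells of both mice.

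Across all 12358 genes tested in this comparison, 263 genes were higher in the Ptch1-positive cells (2.13%) and 81 were lower (0.655%) at an adjusted p under 0.05, and the median log2 fold change was -0.01. With the mouse as a block, which uses the pairing of sums from the same animal, 2024 of the 12358 genes passed. Of these 1005 were higher and 1019 lower, and blocked counts of the lists below are to be read against them. The share higher was 49.7%, against 76.5% without the block and 65.3% of the 542 genes that DESeq2 called. All 344 genes of the unblocked fit passed in the blocked fit with the same sign. Leaving out mouse 1 left 40 genes and leaving out mouse 2 left 44, in fits where a lone sum is assumed to vary like the other groups. Gli1 passed either way. A limit of under 5% mitochondrial UMIs kept 120 and 463 Ptch1-positive cells and left 4 genes, Gli1 among them. The co-receptor gene Gas1, the cyclin gene Ccnd1 and the collagen gene Col4a1 did not pass there, with changes of 1.14, 1.33 and 1.44. Without the sums of Shh-expressing cells, which then held 2 and 26 cells, the same edgeR test called 0 genes there and 700 genes had an unadjusted p under 0.05. The change of Gli1 was 1.63 there.

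**Figure D1:**
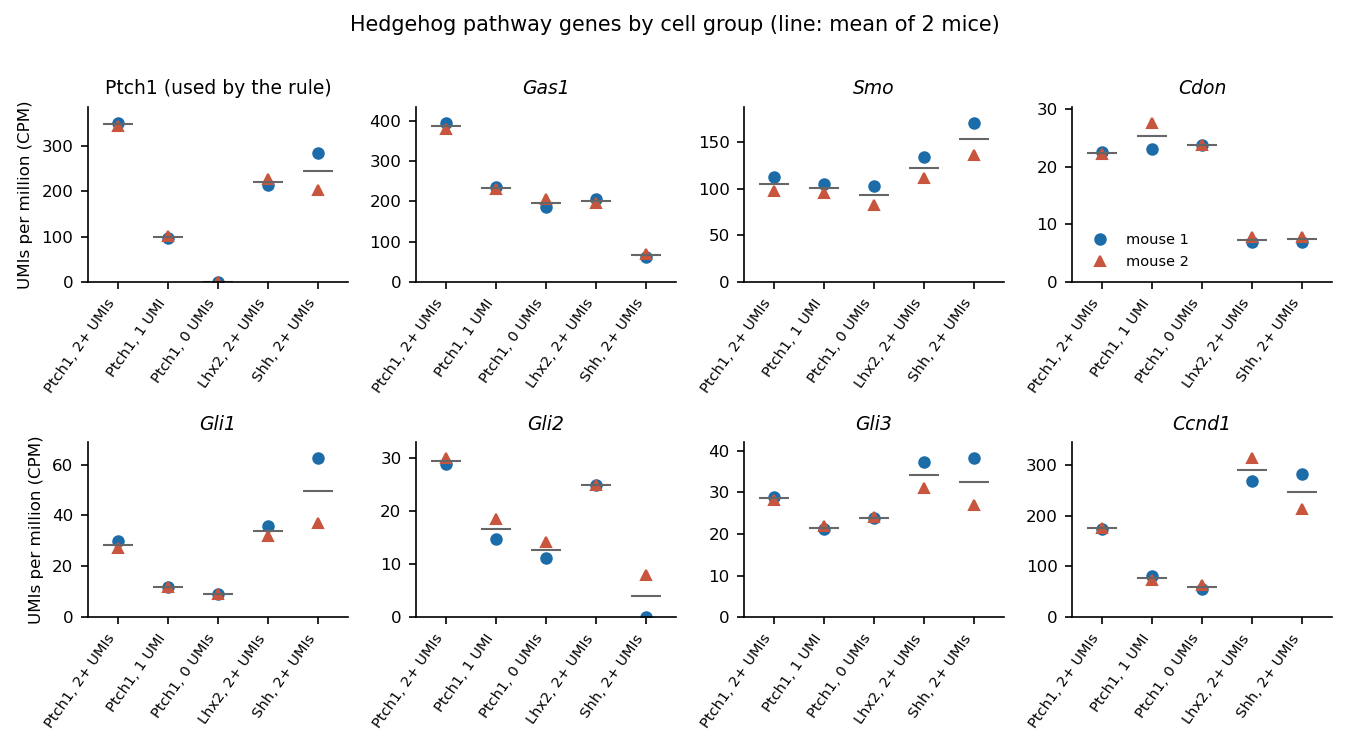
CPM (vertical axis, from 0) of 8 hedgehog genes in the 5 cell groups (horizontal axis), with 1 point per mouse and a line at the mean of the 2 mice. Gas1, Gli1, Gli2 and Ccnd1 stand higher in both mice in the cells with at least 2 Ptch1 UMIs than in those with none (Gli1 29.8 and 27.1 against 9.10 and 9.20 CPM). The Smo values of the 2 groups overlap across mice, although within each mouse the cells with at least 2 Ptch1 UMIs stand higher. Ptch1 itself was used to choose the cells.

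Of the receptors and co-receptors, 5 of 7 listed genes could be tested against the Ptch1-zero cells. Gas1 was higher, none was lower, and the list's median was 0.09. Gas1, a membrane co-receptor that helps cells sense the ligand, was at 394 and 379 CPM against 186 and 205 CPM, which do not overlap (0.89 ± 0.08 log2, edgeR adjusted p = 0.00071). Smo, the Smoothened receptor, was at 112 and 97.3 CPM against 103 and 82.8 CPM. The groups overlapped across mice, but within each mouse the Ptch1-positive cells had the higher level. The co-receptors Cdon (22.6 and 22.1 against 23.7 and 23.8 CPM) and Boc (12.01 and 10.6 against 13.0 and 10.3 CPM) did not pass either. Hhip, a decoy receptor that the pathway induces in many tissues, was barely detected, at 0.841 and 0.454 CPM. Lrp2 had no UMI in these cells.

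Of the genes that carry and execute the signal, 10 of 11 were tested, Gli1 and Gli2 were higher and none was lower, with a median of 0.46. Gli2, the main transcriptional activator (chr1:118834132-119053619), was at 29.0 and 30.0 CPM against 11.1 and 14.1 CPM (1.12 ± 0.20, edgeR adjusted p = 0.017). These values do not overlap, but Gli2 did not pass when either mouse was left out. Gli3, which mostly acts as a repressor, was at 29.0 and 28.1 CPM against 23.8 and 24.0 CPM, a difference that missed the threshold (0.17 ± 0.11). The inhibitor Sufu (0.13), the ciliary regulators Kif7 (0.76), Evc (0.80), Iqce (0.60) and Gpr161 (0.13) and the ubiquitin ligase adaptor Spop (-0.14) did not pass, nor did Evc2, at 11.7 and 13.3 CPM against 9.62 and 9.25 CPM. Stk36 was too low to test. In the blocked fit 5 of the 10 genes were higher. None of the 5 genes for ligand processing and release passed in the unblocked edgeR test. The nearest was Scube2, a secreted protein that helps release the ligand, at 7.57 and 9.48 CPM against 13.9 and 20.8 CPM (-1.11 ± 0.26, edgeR adjusted p = 0.053). It passed with the mouse as a block and with DESeq2. Its relatives Scube1 (-0.64) and Scube3 (0.53), the ligand exporter Disp1 (15.3 and 21.0 against 12.3 and 16.2 CPM) and the acyltransferase Hhat (-0.16) did not pass. None of the 3 ligand genes could be tested: Shh was excluded by the selection, and Ihh and Dhh were at or below 0.130 CPM in the Ptch1-positive cells.

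Of the 10 listed target genes tested, Ccnd1, Gli1 and Sox9 were higher and Sfrp1 was lower, with a list median of 0.58 against -0.01 over all genes. The list was drawn up with earlier results of these data known. In the blocked fit 5 were higher and 2 lower. Ccnd1 encodes cyclin D1, which starts the cell cycle (chr7:144929931-144939925). It was at 174 and 175 CPM against 54.5 and 63.3 CPM, without overlap (1.48 ± 0.12, edgeR adjusted p = 0.00046). Sox9, a factor of follicle stem and progenitor cells, was at 99.8 and 83.7 CPM against 51.9 and 34.4 CPM (1.01 ± 0.20, edgeR adjusted p = 0.026). Its call was lost without either mouse, and its change was 0.34 under 5% mitochondrial UMIs. Sfrp1, a secreted Wnt inhibitor, was at 6.49 and 7.33 CPM against 13.3 and 13.6 CPM, and fell by 1.04 on the log2 scale. Its call was lost without either mouse and under 5% mitochondrial UMIs. Ccnd2 (0.25), a second D-type cyclin, Mycn (0.63), a growth-promoting factor, Bcl2 (0.17), an inhibitor of apoptosis, Foxe1 (0.53) and Igfbp3 (-1.03) did not pass.

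Gli1 was found in only some of the selected cells. At least 1 Gli1 UMI was seen in 26.9% of Ptch1-positive cells in mouse 1 and 25.7% in mouse 2, against 8.40% and 7.98% of Ptch1-zero cells. In melanocyte-like cells, with median totals of 8772 and 9499 UMIs, the shares were 4.15% and 7.30%. At 3000 UMIs per cell, Gli1 was seen in 8.58% and 9.29% of Ptch1-positive cells, in 2.54% and 2.76% of Ptch1-zero cells and in 0.946% and 1.59% of melanocyte-like cells. The order of these 3 groups was therefore the same at equal depth.

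Several levels differed along the number of Ptch1 UMIs in the cell. Between cells with 2 and cells with 6 or more Ptch1 UMIs, Gli1 went from 12.6 to 45.1 CPM in mouse 1 and from 17.7 to 39.0 CPM in mouse 2. In mouse 1 the Gli1 level in the cells with 2 UMIs was close to that of the cells with 1 UMI just outside the limit, at 11.7 CPM. In mouse 2 it was higher, at 17.7 CPM against 11.9 CPM. Gli2 went from 22.8 to 35.3 CPM in mouse 1 and from 21.0 to 40.7 CPM in mouse 2. The cells with 6 or more were also deeper, with median totals of 11417.5 and 11867 UMIs, and the part of depth in these gradients was not tested. Smo stayed between 82.8 and 117 CPM in all classes of both mice. As the classes are cut from the gene that chose the cells, these values are a description.

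**Figure D2:**
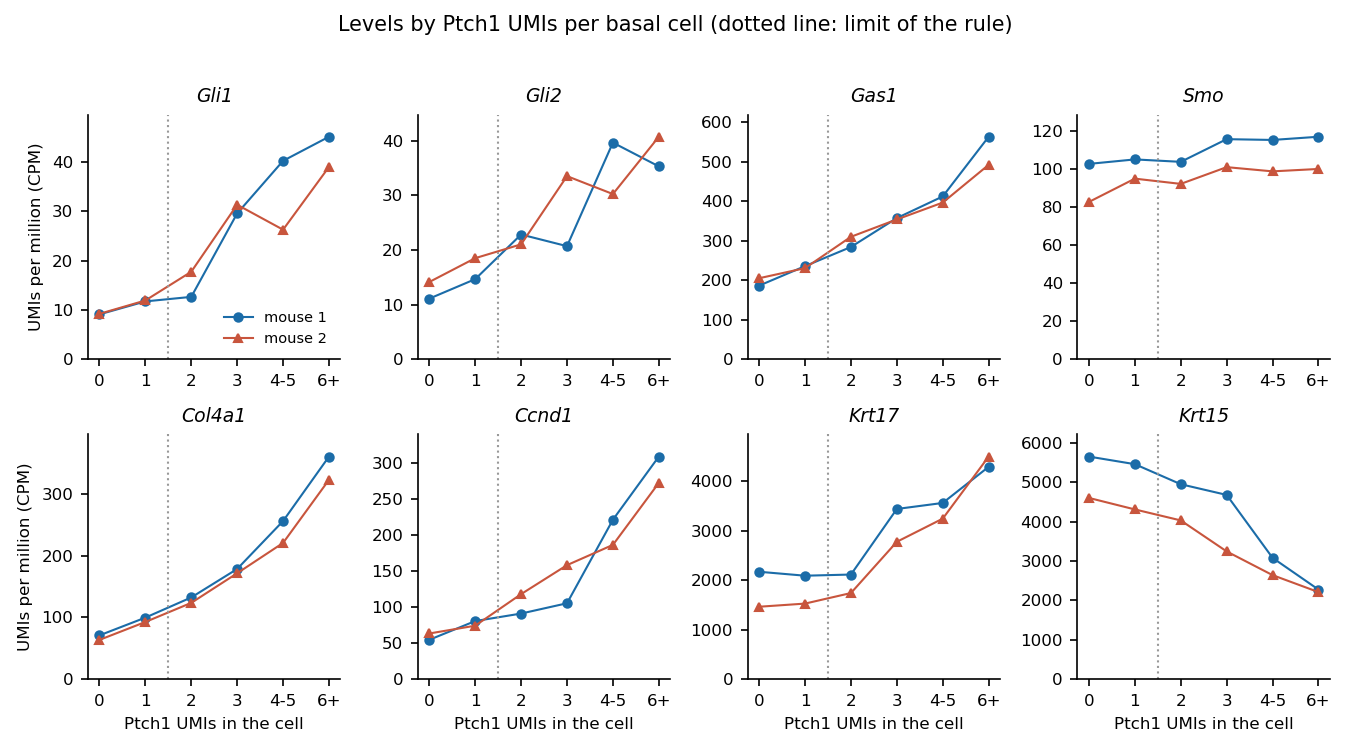
CPM (vertical axis, from 0) of 8 genes in basal cells grouped by their Ptch1 UMIs (horizontal axis), with 1 line per mouse and a dotted line at the limit of the selection. Col4a1 climbs from 70.9 and 63.5 CPM at 0 UMIs to 361 and 323 CPM at 6 or more, Krt15 falls from 5648 and 4598 to 2272 and 2208 CPM, and Smo stays nearly level.

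The Ptch1-positive cells also differed in genes of the basement membrane, the sheet of matrix on which basal cells rest. Of 23 genes tested, Col4a1, Col4a2 and Hspg2 were higher and Fras1 was lower, with a list median of 0.10. Col4a1, a chain of type IV collagen (chr8:11198423-11312826), was at 224 and 199 CPM against 70.9 and 63.5 CPM. It rose by 1.57 ± 0.09, the smallest adjusted p of the named genes in this comparison (0.00011, edgeR), and passed without either mouse. No gene of this list passed under 5% mitochondrial UMIs. Its partner chain Col4a2, transcribed in the opposite direction from a nearby start, was at 100 and 93.3 CPM against 38.3 and 38.6 CPM (1.24 ± 0.11). Hspg2, the heparan sulfate proteoglycan perlecan, was at 89.5 and 84.2 CPM against 46.1 and 45.0 CPM (0.84 ± 0.08). None of these values overlapped between groups. Egfl6, an adhesion protein, had the lowest change of the list (-0.61). The laminin chains Lama3, Lamb3 and Lama5 and collagens Col7a1, Col17a1 and Col18a1 did not pass. The 10 hemidesmosome and integrin genes had no call in either direction, a median of -0.01 and changes between -0.19 (Itga6) and 0.21 (Itgb6). The blocked fit called 9 basement membrane genes higher and 2 lower, and 1 hemidesmosome and integrin gene lower.

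Genes of DNA replication were higher. Of the 27 listed S-phase genes, 17 were higher and none lower, and all 27 had a positive change with a median of 0.75. Clspn, a checkpoint protein at replication forks, was at 37.0 and 39.1 CPM against 13.4 and 16.3 CPM (1.26 ± 0.15, edgeR adjusted p = 0.0031). Mcm3, a subunit of the replicative helicase, was at 74.6 and 91.1 CPM against 34.6 and 43.4 CPM (1.00 ± 0.17). The groups did not overlap for either gene. Changes ran from 0.34 for Pola1, a DNA polymerase subunit, to 1.71 for Cdc6, a factor that loads the helicase. Among 18 genes of G2 and mitosis 7 were higher and none lower, with a median of 0.80. Kif11, a spindle motor, was at 14.3 and 12.5 CPM against 4.85 and 4.76 CPM (1.38 ± 0.18), and Cdc20, an activator of mitotic exit, had the lowest change (-0.10). When the block was used, 26 S-phase genes and 13 of the second list were higher. Cells with more than 2 UMIs of Cenpf, Ccnb1 and Ube2c had been removed from both groups, which limits what can be seen of mitotic genes. With Ptch1-zero cells paired to the Ptch1-positive cells in total UMIs, 10 of the 27 S-phase genes passed, again all higher, with a median of 0.61. Leaving out mouse 1 left 0 S-phase calls and leaving out mouse 2 left 1, and under 5% mitochondrial UMIs there was none, with all 27 changes still positive. The G2 and mitosis list had 0 calls under each of these 3 alternatives.

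Regulators of cell cycle entry moved in both directions. E2f1, a transcription factor of replication genes, was at 24.6 and 26.2 CPM against 11.2 and 13.5 CPM (0.94 ± 0.13, edgeR adjusted p = 0.0072). Cdkn1a, the cell cycle inhibitor p21, was at 74.6 and 62.8 CPM against 149 and 116 CPM and fell by 1.03. Myc was at 9.49 and 8.57 CPM against 19.9 and 16.1 CPM and fell by 1.08. Ccnd1 and E2f1 were the only genes higher and Cdkn1a and Myc the only genes lower of 18 tested in that list, whose median was 0.34. The groups overlapped for none of these 4 genes. With the block 11 genes of the list were higher and 2 lower. Without mouse 1 there was 1 higher and none lower, without mouse 2 there was 1 in each direction, and under 5% mitochondrial UMIs there was none.

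Outside the lists, the largest rise among called genes with at least 20 CPM was that of Hmga2, a chromatin protein of proliferating and embryonic cells. It was at 25.1 and 28.6 CPM against 3.90 and 6.46 CPM (2.25 ± 0.26, edgeR adjusted p = 0.0027). Rhoc, a small GTPase of the actin cytoskeleton, stood at 26.7 and 33.3 CPM against 7.02 and 8.60 CPM. Has3, a synthase of the matrix sugar hyaluronan, stood at 37.1 and 39.0 CPM against 11.3 and 12.5 CPM. Fn1, the matrix protein fibronectin, stood at 42.9 and 42.1 CPM against 11.2 and 15.7 CPM. Each of them was higher in both mice without overlap and passed the test. Cntfr, a cytokine receptor subunit (log2 change 1.52), Gmpr, an enzyme of purine metabolism (1.61), Plod1, a lysyl hydroxylase that modifies collagens (1.36), and Pygb, a glycogen phosphorylase (1.36), passed as well. Gmpr lost its call without either mouse and Rhoc without mouse 2, and none of these 8 genes passed under 5% mitochondrial UMIs.

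Among called genes with at least 20 CPM in the Ptch1-zero cells, Prlr had the largest fall. Prlr, the prolactin receptor, was at 8.41 and 7.33 CPM against 35.9 and 29.6 CPM, and fell by 2.15 (SE 0.17, edgeR adjusted p = 0.00038). Apoe, a lipid-carrying protein, was at 953 and 876 CPM against 2713 and 2057 CPM, and fell by 1.47. Lpl, an enzyme that frees fatty acids from lipoproteins, fell by 1.37, but was not called without either mouse. Mgst1, Sdr16c6, Acsbg1, Slc27a4 and Plin2 fell by between 1.26 and 1.60. None of them passed without mouse 1, and without mouse 2 Sdr16c6 and Plin2 did. None of the genes named here passed under 5% mitochondrial UMIs. Of 7 sebaceous genes tested, Mgst1, Plin2 and Pparg were lower and none higher, with a median of -2.04 and changes between -2.35 (Pparg) and -1.26 (Plin2). In the blocked fit all 7 were lower. There was a single call when either mouse was left out, and there was none under 5% mitochondrial UMIs. The summed level of that list was 232 and 204 CPM in the Ptch1-positive cells and 962 and 460 CPM in the Ptch1-zero cells, with Scd1 and Mgst1 the most abundant. The comparison was repeated without cells with at least 2 UMIs of Krt79 and Krt6a, genes of the upper follicle and sebaceous duct, an alternative chosen after seeing the data. Then 1 of 6 sebaceous genes, Pparg, was lower, with a median of -0.42. Prlr, Apoe and Lpl still passed, whereas Mgst1, Sdr16c6, Acsbg1, Slc27a4 and Plin2 did not, and 286 genes were higher in total.

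**Figure D3:**
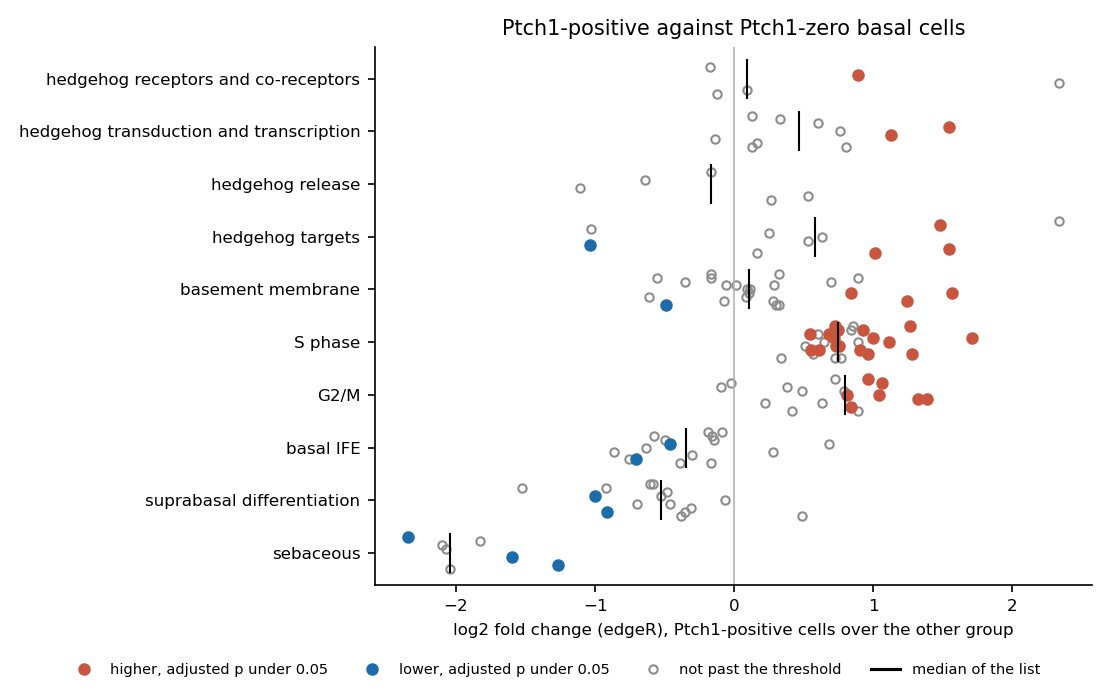
Log2 fold changes (horizontal axis) of the tested genes of 10 lists (rows) in Ptch1-positive over Ptch1-zero basal cells. Filled points passed edgeR's test at an adjusted p under 0.05 and the black bar is the list's median. S-phase genes lie wholly to the right of 0 with a median of 0.75, sebaceous genes lie to the left with a median of -2.04, and the hedgehog release list lies on both sides with no filled point.

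The other markers given for these cells behaved less evenly. Krt17, a keratin of follicles and of stressed epidermis (chr11:100256217-100261029), was at 3224 and 2898 CPM against 2172 and 1464 CPM. The values did not overlap, but the difference of 0.67 ± 0.20 missed the threshold (edgeR adjusted p = 0.14). With the mouse as a block it passed (0.70), as it did without upper follicle cells (1.25), while under 5% mitochondrial UMIs its change was 0.10. Cell by cell, the median Ptch1-positive cell had 0.145% and 0.159% of its UMIs from Krt17, against 0.0321% and 0.0381% in Ptch1-zero cells, and single cells of the Ptch1-positive group reached 3.54% and 6.21%. Of the 4 marker genes, Ptch1 chose the cells, Col4a1 and Ccnd1 passed and Krt17 did not. The markers were given with earlier results of these data known, so these outcomes are a description and not an independent check.

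The median change was negative for interfollicular basal genes. Of 16 tested genes of basal interfollicular epidermis (IFE), Sfn and Thbs1 were lower and none was higher, with a median of -0.34. The blocked fit called 12 lower and 2 higher, and there was no call without either mouse. Under 5% mitochondrial UMIs there was no call either, and the median was -0.06. Sfn, an adaptor protein of keratinocyte growth arrest, was at 587 and 579 CPM against 765 and 752 CPM and fell by 0.46. Krt15, a keratin of basal and follicle stem cells, was at 3844 and 3160 CPM against 5648 and 4598 CPM (-0.63 ± 0.16), and the imprinted RNA H19 was at 236 and 296 CPM against 410 and 501 CPM (-0.86 ± 0.34). Neither passed the unblocked edgeR test, nor did Dcn, a matrix proteoglycan with the highest change of the list (0.68). DESeq2 called 6 of the 16 genes lower, Krt15 among them, and 0 higher. Of 16 suprabasal differentiation genes, Sbsn and Dsc1 were lower and none was higher, and the median was -0.50, with Lor, a cornified envelope protein, lowest (-1.52) and Calm4 highest (0.49), neither of which passed. None of 9 upper follicle genes passed, with a median of -0.06 and changes between -1.41 (Cst6) and that of Krt17. Their summed level was 4937 and 3561 CPM against 5224 and 2674 CPM. Of 24 follicle genes, Edar and Sox9 were higher and Sox21 and Tgfb2 lower, with a median of -0.20. With the block 1 suprabasal gene was higher and 9 lower, 1 upper follicle gene was higher and 4 lower, and 4 follicle genes were higher and 9 lower. No follicle gene was called without either mouse. For suprabasal genes there was no call without mouse 1, under 5% mitochondrial UMIs or without upper follicle cells, and 1 was lower without mouse 2.

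A few genes of other signalling pathways differed. Wnt7b, a Wnt ligand, was at 140 CPM in both mice against 87.3 and 89.0 CPM (0.58 ± 0.10, edgeR adjusted p = 0.013) and was the only one of 11 Wnt ligands called, in a list with a median of -0.38 and Wnt11 lowest (-1.24). Axin2, a feedback target of Wnt signalling, was at 23.1 and 20.1 CPM against 34.4 and 27.3 CPM and fell by 0.60. It and Sfrp1 were the only called genes of 16 Wnt targets and modulators, whose median was 0.23 and whose highest change was that of the Wnt inhibitor Wif1 (2.30, not called). The gene of the ectodysplasin receptor Edar, which acts in early follicle formation, was at 7.69 and 8.76 CPM against 3.03 and 2.96 CPM (1.38 ± 0.21). Sox21 and Tgfb2 fell by 0.85 and 1.26. Of 15 genes of Bmp and Tgf-beta signalling, Tgfb2 was the only one called by the unblocked edgeR test, with a median of 0.05 and Tgfb1 highest (0.33). Among 11 Notch genes Maml2, a co-activator, was higher (0.79), the median was -0.04 and Notch3 was lowest (-0.54). None of the 8 Egf receptor family genes passed, between Hbegf (-0.89) and Egfr (0.05) with a median of -0.15. None of 12 immediate early genes passed, between Ier2 (-0.48) and Nr4a1 (-0.11) with a median of -0.29, nor did any of 13 genes of the inner root sheath and hair shaft, between Krt27 (-0.50) and Krt35 (0.79) with a median of -0.12. These counts are those of the unblocked edgeR fit. With the mouse as a block 10 of the 12 immediate early genes were lower, as were 6 without a filter on low counts. The block also called 2 Wnt ligands higher and 4 lower, 2 genes of the Bmp and Tgf-beta list higher and 3 lower, and 2 Egf receptor family genes lower. Over all 12358 genes the blocked fit called 1005 higher and 1019 lower, so a few calls in a list are no result about that list. In that fit 2 Notch genes were higher and 1 lower, 1 of the Wnt targets and modulators was higher and 2 lower, and 1 gene of the inner root sheath and hair shaft was called in each direction. DESeq2 called 1 gene of the Bmp and Tgf-beta list higher and 1 lower, and 1 Wnt ligand higher and 2 lower. Without a filter on low counts 1 Wnt ligand was higher and 4 were lower. Without either mouse and under 5% mitochondrial UMIs, none of these lists had a call.

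Markers of other cells were present in the Ptch1-positive cells at levels that differed by list. The 8 melanocyte genes summed to 45.3 and 71.1 CPM, against 59.8 and 87.5 CPM in the Ptch1-zero cells, with Dct the most abundant, and none passed. The 9 Langerhans cell genes summed to 41.6 and 71.8 CPM against 22.9 and 44.3 CPM, without Cd207 in either mouse, and none of the 8 tested passed. Tyrobp led in mouse 1 and Cd74 in mouse 2. All 8 changes were positive (median 0.69), but none of 7 was when the cells with the highest doublet scores were left out (median -0.59) or with Krt14 and Krt5 at 1% or more (median -1.52). T cell genes summed to 0.240 and 0.389 CPM against 0.346 and 5.04 CPM, and Merkel cell genes to 0.120 and 0.714 CPM against 0.606 and 3.78 CPM. None of the 2 T cell genes and 1 Merkel cell gene that could be tested passed in the unblocked edgeR test. With the mouse as a block 1 T cell, 1 Merkel cell and 1 melanocyte gene were lower. Without a filter on low counts 4 Langerhans cell genes were higher and 2 melanocyte genes lower. The 11 dermal genes summed to 155 CPM in both mice against 208 and 212 CPM, nearly all of it Postn at 133 and 143 CPM, and 1 of 4 tested passed. Postn was called lower with the mouse as a block and with DESeq2. Over all cells kept the dermal sum was 129 and 132 CPM, lower than in the Ptch1-positive cells. Col1a2 was higher in the Ptch1-positive cells (9.25 and 7.92 against 3.21 and 4.65 CPM), as was Egfl7, the most abundant of 5 endothelial genes (13.5 and 15.3 against 7.80 and 7.67 CPM), while Cdh5, Kdr and Cldn5 were at 0. Neither list had a higher call without either mouse, under 5% mitochondrial UMIs or with Krt14 and Krt5 at 1% or more. The part of other cells in the calls was not tested.

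Against the Lhx2-high follicle cells the Gli genes showed no difference that passed in the unblocked edgeR test. Gli1 was at 35.9 and 31.8 CPM there. The difference of -0.18 ± 0.13 did not pass that test. With the mouse as a block, 2 of the hedgehog genes, markers and genes of largest change gained a call in this comparison. None of the 10 tested genes for transduction and transcription was called, but the co-receptors diverged. Gas1 was higher in the Ptch1-positive cells, at 394 and 379 CPM against 205 and 195 CPM (1.02 ± 0.08, edgeR adjusted p = 5.7e-05). Cdon was at 22.6 and 22.1 CPM against 6.88 and 7.78 CPM (1.66 ± 0.14), while Boc was lower, at 12.01 and 10.6 CPM against 20.5 and 20.6 CPM, and fell by 0.80. Hhip was lower too (0.841 and 0.454 against 6.28 and 2.19 CPM). All 4 co-receptor and decoy genes stood apart without overlap. This comparison and the next use the same sums of Ptch1-positive cells as the first, so the 3 are not independent.

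Against the Lhx2-high cells, 731 genes were higher in the Ptch1-positive cells (5.92%) and 867 were lower (7.02%) of the 12358 tested. With the mouse as a block 3443 genes passed, and without mouse 1 or mouse 2 there were 431 and 460. Genes of the interfollicular epidermis were among the higher ones, with 13 of 16 higher, none lower and a median of 0.92. Igf2, an imprinted growth factor, was at 53.2 and 50.04 CPM against 14.7 and 14.2 CPM (1.91 ± 0.22, edgeR adjusted p = 0.00036). H19 was at 236 and 296 CPM against 73.7 and 79.2 CPM (1.87 ± 0.36). Krt15 was at 3844 and 3160 CPM against 2644 and 2161 CPM (0.61 ± 0.16). Of the integrins and hemidesmosome genes, Itga3, Itga6 and Itgb4 were higher and Itgb6 lower. Of 23 basement membrane genes, 8 were higher and 4 lower, while Col4a1 was at 206 and 230 CPM in the Lhx2-high cells, a difference of 0.02 ± 0.09 that did not pass.

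Wnt ligands were mostly higher in the Ptch1-positive than in the Lhx2-high cells. Of 11 tested, 9 were higher, Wnt5a was lower and the median was 1.43. Wnt4 was at 544 and 564 CPM against 169 and 213 CPM (1.60 ± 0.15, edgeR adjusted p = 0.00011). Wnt16 was at 141 and 91.4 CPM against 32.6 and 28.8 CPM (1.98 ± 0.21). Wnt3a was at 8.41 and 11.6 CPM against 1.80 and 2.51 CPM (2.25 ± 0.25). None of these ligand genes overlapped between groups. The nuclear Wnt effector Lef1 was higher as well, at 91.4 and 99.1 CPM against 32.3 and 44.4 CPM (1.37 ± 0.16).

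Of 24 follicle genes, 11 were lower, 6 were higher and 7 did not pass, with a median of -0.49. Tbx1, a factor of follicle stem cells, was at 4.45 and 4.48 CPM against 115 and 103 CPM and fell by 4.53 (SE 0.16, edgeR adjusted p = 4.2e-07). Lgr5, a receptor that marks follicle stem cells, was at 5.53 and 5.52 CPM against 77.9 and 73.5 CPM and fell by 3.70. Sox9 was at 99.8 and 83.7 CPM against 291 and 200 CPM and fell by 1.35, so the Ptch1-positive cells stood between the Ptch1-zero and the Lhx2-high cells. Of the target genes, Mycn fell by 2.13, Foxe1 by 3.36, Sfrp1 by 3.61 and Ccnd1 by 0.67, while Ccnd2 was higher (0.88 ± 0.17). Of 27 S-phase genes none was higher and Gins2 was lower (-0.32), with a median of -0.14.

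**Figure D4:**
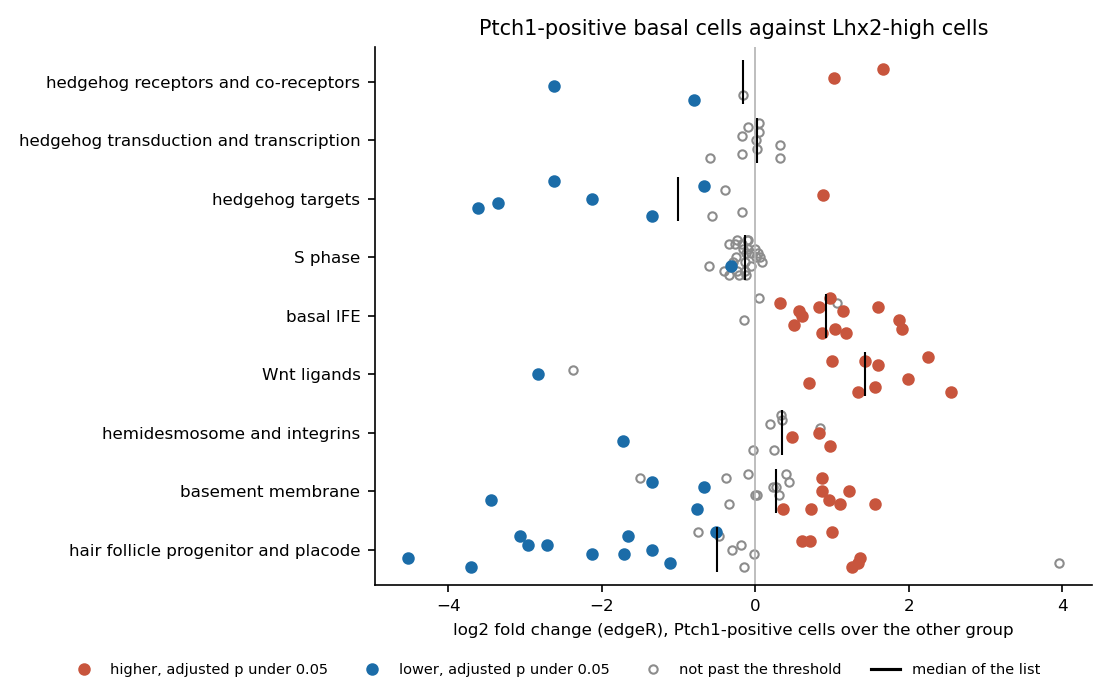
Log2 fold changes (horizontal axis) of the tested genes of 9 lists (rows) in Ptch1-positive basal cells over Lhx2-high follicle cells. Filled points passed edgeR's test at an adjusted p under 0.05 and the black bar is the list's median. Basal IFE genes and Wnt ligands lie mostly to the right, with medians of 0.92 and 1.43, follicle genes mostly to the left, and S-phase genes near 0.

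Of single genes against the Lhx2-high cells, the largest rises among called genes with at least 20 CPM in the higher group and changed alike in both mice were in the chemokine gene Cxcl10 (23.5 and 17.3 against 3.44 and 2.59 CPM), the peptidase gene Dpp4 (28.0 and 31.1 against 5.09 and 5.27 CPM) and the homeobox gene Meis2 (24.5 and 26.0 against 4.79 and 4.94 CPM). None of these overlapped, and their log2 changes were 2.85, 2.58 and 2.44. Mall (2.29), Serpinb10 (2.15), the transcription factor Sox6 (2.04), Cfap57 (1.98) and the glutamate transporter gene Slc1a3 (1.94) followed. Stfa1 (1.99) and BC100530 (2.12) belong to a family of near-identical stefin genes between which reads can be shared, so their values are uncertain. Atf3, a stress-induced factor, was at 201 CPM in mouse 1 but 75.9 CPM in mouse 2, against 47.9 and 26.6 CPM (1.97 ± 0.57). Within the same limits the largest falls were in Shisa2, Tbx1, Adamts19, Hmcn1 and Col14a1. Their log2 changes were -4.76, -4.53, -4.19, -3.79 and -3.75, and that of Sox13 was -3.41. Among the hedgehog genes, markers and genes of largest change checked in this comparison, 15 lost their call under 5% mitochondrial UMIs. Calls were also lost when either mouse was left out.

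The Ptch1-positive cells were then compared with the Shh-expressing cells, the source of the ligand. Against them 356 genes were higher in the Ptch1-positive cells (2.88%) and 371 were lower (3%). With the mouse as a block 1289 genes passed, 737 higher and 552 lower. Without a filter on low counts 731 were higher and 519 lower, and under 5% mitochondrial UMIs 14 were higher and 42 lower. The balance of directions thus depended on the fit. The median over all genes was 0.06 after normalization by TMM and -0.13 with plain CPM, a shift of scale to which the changes below are relative. Gas1 was higher, at 394 and 379 CPM against 62.6 and 68.5 CPM (2.63 ± 0.12, edgeR adjusted p = 1.0e-05). Cdon was higher (22.6 and 22.1 against 6.95 and 7.86 CPM). These were 2 of 5 receptor and co-receptor genes tested, and Boc overlapped, at 12.01 and 10.6 against 6.95 and 11.2 CPM (0.25, not called). Gli1 was at 62.6 and 37.0 CPM in the Shh-expressing cells, and its difference of -0.55 ± 0.20 did not pass in the unblocked edgeR test. With the mouse as a block, 3 of the hedgehog genes, markers and genes of largest change gained a call in this comparison.

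Gli2 was higher in the Ptch1-positive cells (2.42 ± 0.47), with no UMI in the Shh-expressing cells of mouse 1 and 7.86 CPM in those of mouse 2. Evc, which had no UMI in either Shh-expressing sum, was at least 2.93-fold higher against the 3 counts taken as the floor over that group. Scube1 and Scube3, genes of ligand release, fell by 5.71 and 4.42. Scube1 was at 0.961 and 0.454 CPM against 31.3 and 40.4 CPM. Sp5 (1.20 and 0.909 against 111 and 110 CPM), a Wnt target, and Bmp4 (0.961 and 1.56 against 45.2 and 42.6 CPM), a ligand of the follicle bud, also stood far lower, as did Gxylt2, Sfrp2, Cnr1, Ascl4 and Qrfp. Krt79, a keratin of the upper follicle, was higher at 1505 and 470 CPM against 90.4 and 62.8 CPM (3.88 ± 0.80), although the 2 mice differed widely. Fam189a2 (3.08), Fam81a (2.92), Anxa8 (2.76), Col16a1 (2.75), Cwh43 (2.69) and Mgll (2.43) were higher too. Calm5, Slco2a1 and B4galnt1 were called higher with no UMI in the 29 Shh-expressing cells of mouse 1. Of the hedgehog genes, markers and genes of largest change checked in this comparison, 17 lost their call under 5% mitochondrial UMIs. Calls were also lost when either mouse was left out.

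The Ptch1-positive cells were also divided by whether a Gli1 UMI was seen. At least 1 UMI of Gli1 was seen in 195 of them in mouse 1 and 348 in mouse 2. Col4a1 was at 260.1 and 239.5 CPM in these cells and at 208 and 184 CPM in those without. Ccnd1 was at 215 and 200.3 CPM against 157 and 167 CPM. Both genes thus had higher levels beside Gli1 in the 2 mice. Krt15 was at 3278 and 2685 CPM against 4091 and 3330 CPM, and H19 at 203 and 267 CPM against 249.6 and 307 CPM, so both had lower levels there. The cells with Gli1 were deeper, with median totals of 10836 and 10905 UMIs against 9907 and 10291. These are descriptions of cells divided by their own counts, and were not tested.

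Levels of follicle genes differed in both directions in cells with the single Lhx2 UMI that the selection allowed. That UMI was seen in 107 cells of mouse 1 (14.8%) and 234 of mouse 2 (17.3%). In melanocyte-like cells, the measure of stray RNA, at least 1 Lhx2 UMI was seen in 15.9% and 18.9%, with no upper limit on Lhx2. Of those cells 8.53% and 8.01% had doublet scores in the highest 5%, against 4.01% and 3.03% of Ptch1-positive cells. In Ptch1-zero cells, also limited to 1 Lhx2 UMI, the shares with it were 11.9% and 9.84%. A single Lhx2 UMI does not by itself show that a cell expressed the gene. Sox9 was at 158 and 147 CPM in the Ptch1-positive cells with the Lhx2 UMI, against 88.1 and 68.9 CPM in those without. Krt79 was at 3035 and 1459 CPM against 1195 and 239 CPM. Lef1 was lower, at 73.5 and 60.8 CPM against 95.1 and 108 CPM, as was Krt15, at 3724 and 2684 CPM against 3868 and 3271 CPM. The cells with the Lhx2 UMI were deeper, with median totals of 11528 and 11080.5 UMIs against 10000 and 10339. These differences were not tested. With Lhx2 at 0 in both groups, 278 genes passed against the Ptch1-zero cells, of which 260 were among the 344.

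Promoters of the called genes were searched for the letters GACCACCCA, a binding motif of GLI factors, on both strands within 250 bases before to 50 after each RefSeq start site (GRCm38.p6). The motif was in 83 of 32851 promoters (0.253%), in 26 of 11928 promoters of tested genes (0.218%), in 2 of 252 promoters of genes higher in the Ptch1-positive cells (0.794%) and in 0 of 74 promoters of lower genes. The 2 matches were Uaca and Cltb. Cltb, a clathrin light chain, was at 198 and 203 CPM against 74.4 and 80.2 CPM in the Ptch1-zero cells (1.28 ± 0.10, edgeR adjusted p = 0.00038). Uaca, a regulator of apoptosome signalling, was at 18.1 and 17.6 CPM against 9.70 and 9.69 CPM (0.79 ± 0.13, edgeR adjusted p = 0.013). Both were higher without overlap. The 250 bases before their start sites are shown because they hold the motif, in capitals, as GACCACCCA or its reverse complement TGGGTGGTC, and those of Ptch1 because that gene chose the cells. Uaca is at chr9:60794192-60794441 on the plus strand, Cltb at chr13:54611374-54611623 and Ptch1 at chr13:63565736-63565985, both on the minus strand. The motif begins at position -201 from the start of Uaca and -56 from that of Cltb.
Uaca: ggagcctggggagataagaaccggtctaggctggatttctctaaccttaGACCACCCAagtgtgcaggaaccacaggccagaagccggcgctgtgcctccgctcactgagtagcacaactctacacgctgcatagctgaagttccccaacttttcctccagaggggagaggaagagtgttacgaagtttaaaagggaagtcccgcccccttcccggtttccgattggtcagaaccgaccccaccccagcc
Cltb: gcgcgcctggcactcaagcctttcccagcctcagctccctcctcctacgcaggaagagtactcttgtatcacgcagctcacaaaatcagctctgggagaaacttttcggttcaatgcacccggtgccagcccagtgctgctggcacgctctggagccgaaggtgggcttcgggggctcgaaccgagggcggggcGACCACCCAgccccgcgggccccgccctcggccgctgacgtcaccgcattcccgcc
Ptch1: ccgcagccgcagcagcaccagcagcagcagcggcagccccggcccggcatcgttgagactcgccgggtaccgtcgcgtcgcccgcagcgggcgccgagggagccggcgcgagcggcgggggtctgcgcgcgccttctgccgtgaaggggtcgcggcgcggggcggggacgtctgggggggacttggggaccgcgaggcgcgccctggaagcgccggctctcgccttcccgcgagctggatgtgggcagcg
The window shown for Ptch1 does not hold these letters. It precedes the one start site given for the gene in the RefSeq table, which lies inside the span of the gene in GENCODE, and the windows of other start sites were not searched. A match is a description of the sequence and not a measured binding site.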

How the data were processed

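Reads were aligned and counted by the authors with Cell Ranger 3.0.2 and mm10 (submitters' processing notes). They deposited raw UMI counts per gene and barcode, 1 matrix per mouse, with 10816 barcodes in mouse 1, 15867 in mouse 2 and 27998 genes in each. The cells and gene lists were chosen with earlier results of these data known.

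UMI counts were summed per mouse and cell group, since cells are not replicates, giving 10 sums of 287758 to 18260830 UMIs. They entered 1 fit of edgeR 4.0.16 (R 4.3.3; TMM, filterByExpr, quasi-likelihood test, Benjamini-Hochberg adjustment over 12358 genes), with a common coefficient of biological variation of 0.113 and 5 residual degrees of freedom. The 10 genes of the selection and mitochondrial genes were left out of the tests. The p-values of this fit rest on the spread between the 2 animals' sums of the same group, pooled over the 5 groups. They do not use the pairing of sums from the same animal, so they do not measure the spread of the differences within an animal. In counts simulated for the comparison with Ptch1-zero cells (11981 genes), 87% of 193 genes changed by 1 log2 unit were recovered, with 7 false calls. Alternatives were DESeq2 1.42.0, no filter, the mouse as a block, leaving out either mouse, and other limits on cells. The replicate number names the animal, so sums with the same number are paired. Differences between the mice correlated across genes between groups with r of 0.0516 to 0.401 (median 0.148 over 10 pairs of groups).

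Named genes were all measured hedgehog genes, for each comparison the 12 largest rises and 8 largest falls among called genes with at least 20 CPM in the higher group and changed alike in both mice, and from each other list the members with the largest and smallest change, here against Ptch1-zero cells. Some items are not reported here, and their genes were left out of the lists. Other genes named as examples, among them Uaca and Cltb, were chosen after their values were seen. Doublets were scored with Scrublet (scanpy 1.11.5) and not removed. Its automatic threshold marked only 2 of 7607 cells in mouse 1, so cells with the highest 5% of scores per mouse were left out as an alternative. The deposited libraries share 127 barcode sequences, and 2 of the Ptch1-positive cells' barcodes occur in both. Gene positions are from GENCODE M21 (GRCm38, mm10).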

Additional observations from a re-analysis of the deposited data

How the results depend on the processing

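In the comparison with Ptch1-zero cells, 344 genes passed. The count was 542 with DESeq2, 2024 with the mouse as a block, 1064 without a filter on low counts, 912 with Ptch1 at 3 UMIs or more, 31 with Ptch1 at 1 UMI or more, 4 under 5% mitochondrial UMIs and 0 under that limit without the sums of Shh-expressing cells, where edgeR's unadjusted p was under 0.05 for 700 genes (DESeq2 was not run there). Without 1 replicate it was 40 to 44. It stayed within 1.5 times when likely doublets (389), Lhx2-positive cells (278), cells under 1% Krt14 and Krt5 (233), upper follicle cells (362) or Shh-expressing sums (355) were left out, and with cells paired in depth (373). Leaving out upper follicle cells or Shh-expressing sums was chosen after seeing the data. Against Lhx2-high cells, 1598 genes became 3443 with the block, 261 under 5% mitochondrial UMIs and 431 to 460 without 1 replicate. Against Shh-expressing cells, 727 became 1289 with the block, 1250 without a filter, 56 under 5% mitochondrial UMIs and 188 to 252 without 1 replicate. The mean share of basal cells that were Ptch1-positive was 30.1% and 9.07% after thinning. The block changed counts in the 3 comparisons and turned no sign of a named gene. The cause of these changes was not tested.

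Among the hedgehog genes, the markers Col4a1, Krt15, Krt17 and H19, and the genes of largest change, signs turned for the following. Against Ptch1-zero cells these were Scube3 with Krt14 and Krt5 at 1% or more (-0.0063) and under 5% mitochondrial UMIs (-0.16), Hhat with Ptch1 at 1 UMI or more (0.16), Hhip without likely doublets (-1.08), and, under 5% mitochondrial UMIs with and without the Shh-expressing sums, Bcl2 (-0.20 and -0.19), Cdon (0.31 and 0.32) and Sufu (-0.060 and -0.054). Without 1 replicate, Hhat ranged from -0.54 to 0.29, Scube1 from -1.33 to 0.22 and Sufu from -0.079 to 0.32. Col4a1 turned under 5% mitochondrial UMIs against Lhx2-high (-0.023) and Shh-expressing cells (-0.15), and ranged from -0.14 to 0.18 without 1 replicate against Lhx2-high cells. Members of other lists turned too: against Ptch1-zero cells, positive changes went from 2 to 6 of 16 basal IFE genes under 5% mitochondrial UMIs, from 8 of 8 to 0 of 7 Langerhans cell genes without likely doublets, and from 5 to 9 of 13 inner root sheath and hair shaft genes without replicate 2.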

Other observations

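Barcodes with 10% or more mitochondrial UMIs were not used above. Of those that met the basal limits, 80 of 456 in mouse 1 (17.5%) and 82 of 593 in mouse 2 (13.8%) had at least 2 Ptch1 UMIs. The median mitochondrial share of all these basal barcodes was 29.8% and 25.5%. Gli1 was at 38.4 and 53.1 CPM in those with at least 2 Ptch1 UMIs and at 11.3 and 19.5 CPM in those with none. The difference between them was not tested.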
